A study of Mus musculus with 9 samples.

Results

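The axon guidance genes of the semaphorin, plexin, neuropilin, netrin, Unc5, Slit, Robo, ephrin and Eph families were followed through estrogen and tamoxifen treatment of FVB MOE cells, secretory epithelial cells of the mouse oviduct grown as a clonal line. They were the gene rows whose symbol begins with Sema, Plxn, Epha, Ephb, Efna, Efnb or Unc5, or with Slit, Robo, Ntn or Nrp and a digit. This gave 71 of the 23332 gene rows, with 70 symbols, since *Efna3* stands in separate rows and *Ntn3* shares a row with *Tbc1d24*. *Unc50*, which encodes a Golgi protein, and *Unc5cl* were caught by the spelling alone, so that 69 rows belonged to guidance ligands or receptors. The cells were starved of hormone for 48 h in medium with charcoal-stripped serum and then kept for 24 h with 0.1% DMSO, with 1 nM 17β-estradiol (E2) or with 100 nM 4-hydroxytamoxifen (4OHT), the active metabolite of tamoxifen. Each condition had 3 samples, numbered 1 to 3 in the labels, and all 9 samples share the starvation. The percentage of DMSO is stated for the solvent control alone. The line is a single clone, and the treatments are described as made in triplicate, without saying whether the 3 RNAseq samples of a condition came from separate cultures, so that p-values measure the spread between these samples, which may be technical.

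Guidance molecules were named for steering axons, but most epithelia use them too, to set cell shape, adhesion, spacing and migration and to pattern vessels. Semaphorins are secreted or membrane-bound ligands that signal through plexins, and most of the secreted class 3 semaphorins need a neuropilin as co-receptor. Netrins bind Dcc, neogenin and Unc5 receptors, Slits bind Robo receptors, and ephrins, which are tethered to the cell surface, bind Eph receptor kinases on the neighbouring cell. E2 acts largely through the estrogen receptors, transcription factors that bind the estrogen response element or are tethered to other factors, and 4OHT binds the same receptors as a selective modulator.

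The values were FPKM, which count fragments per length of transcript and per library size and so allow levels to be compared between genes. Of the 71 rows, 41 had at least 1 FPKM in at least 3 samples and were tested. None of the 71 held an exact 0 among otherwise expressed values, the defect for which 242 rows of the whole table were set apart. None passed the minimum through the E2 samples alone. Of the other 30, 3 were at 0 in every sample (*Epha3*, *Ephb1* and *Unc5a*), 17, these included, stayed under 0.1 FPKM throughout and 13 reached 0.1 FPKM.

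Depth, read from the smallest FPKM steps, lay between 0.821 and 1.19 times that of DMSO replicate 1, and each 4OHT sample was shallower than each DMSO sample, so depth and 4OHT cannot be told apart. The line was checked against cell markers. The secretory marker *Pax8* lay between 105 and 150 FPKM and the keratins *Krt7*, *Krt8*, *Krt18* and *Krt19* at no less than 112 FPKM. The secretory marker *Ovgp1* was low, at 1.44 to 2.61 FPKM, with means of 2.24 with DMSO, 1.65 with E2 and 1.70 with 4OHT. The epithelial adhesion genes *Epcam* and *Cdh1* reached no more than 0.138 and 0.422 FPKM. The 8 secretory markers summed to 1415 to 1558 FPKM with DMSO, 2322 to 2562 with E2 and 1473 to 1673 with 4OHT, largely *Krt7*, *Krt8* and *Krt18*. The 6 fibroblast or stromal markers summed to 3.68 to 7.83 FPKM with DMSO, 10.7 to 23.2 with E2 and 5.24 to 8.53 with 4OHT. Of these 6, 4 stayed under 0.2 FPKM in every sample, with *Thy1* at 0, and the higher sum with E2 lay in *Dcn*. The paper lists *Dcn* among the genes raised by E2 and also measured it by qPCR. It describes the line as holding secretory cells only. All 5 endothelial markers stayed under 0.2 FPKM in every sample, with *Tie1* and *Emcn* at 0. The 4 ciliated markers summed to 16.03 to 20.9 FPKM with DMSO, 11.7 to 17.1 with E2 and 16.8 to 20.6 with 4OHT. This was largely *Foxj1*, at 8.95 to 15.9 FPKM, with means of 14.9 with DMSO, 11.2 with E2 and 15.1 with 4OHT. Over all samples the 4 leukocyte markers summed to 3.14 to 4.07 FPKM, nearly all *Cd68*, and the 5 neuron markers to 6.57 to 10.7, nearly all *Tubb3*. The 4 smooth muscle markers, nearly all *Acta2*, summed to 947 to 1451 FPKM with DMSO, 1300.4 to 1756 with E2 and 1262 to 1553 with 4OHT. The part of these markers in the results was not tested, and in such bulk samples fewer cells of a type and less RNA per cell cannot be told apart.

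In hormone-starved cells, receptors stood at the top of the guidance repertoire. *Plxnb2*, a receptor for class 4 semaphorins, was the highest member, at 206, 184 and 179 FPKM in the DMSO samples. *Epha2*, a kinase receptor for A-type ephrins, followed at 92.3 ± 13.7 FPKM (SD, n = 3) and *Plxna1*, which pairs with neuropilins, at 61.9 ± 11.2. These were followed by the ligand *Sema3f* at 55.2 ± 14.3, the co-receptor *Nrp1* at 46.8 ± 7.26 and the membrane ligand *Efnb2* at 44.5 ± 5.73 FPKM. Of the last 4, each overlapped its neighbour in this order, so the order of neighbours is within the spread between samples.

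*Ntn4* had the highest mean of the netrins in these samples at 26.3 ± 5.59 FPKM, with *Ntn1* at 21.8 ± 11.6 and overlapping values, and *Unc5b* was the highest true Unc5 receptor at 10.8 ± 1.46. *Slit2* was the Slit with the highest level, at 2.83 ± 2.72 FPKM, and the others stayed under 0.1 FPKM. The Robo receptors were low. *Robo3* was the highest of the 4 Robo rows at 0.932 ± 0.0799 FPKM, and no Robo row was tested.

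**Figure D1:**
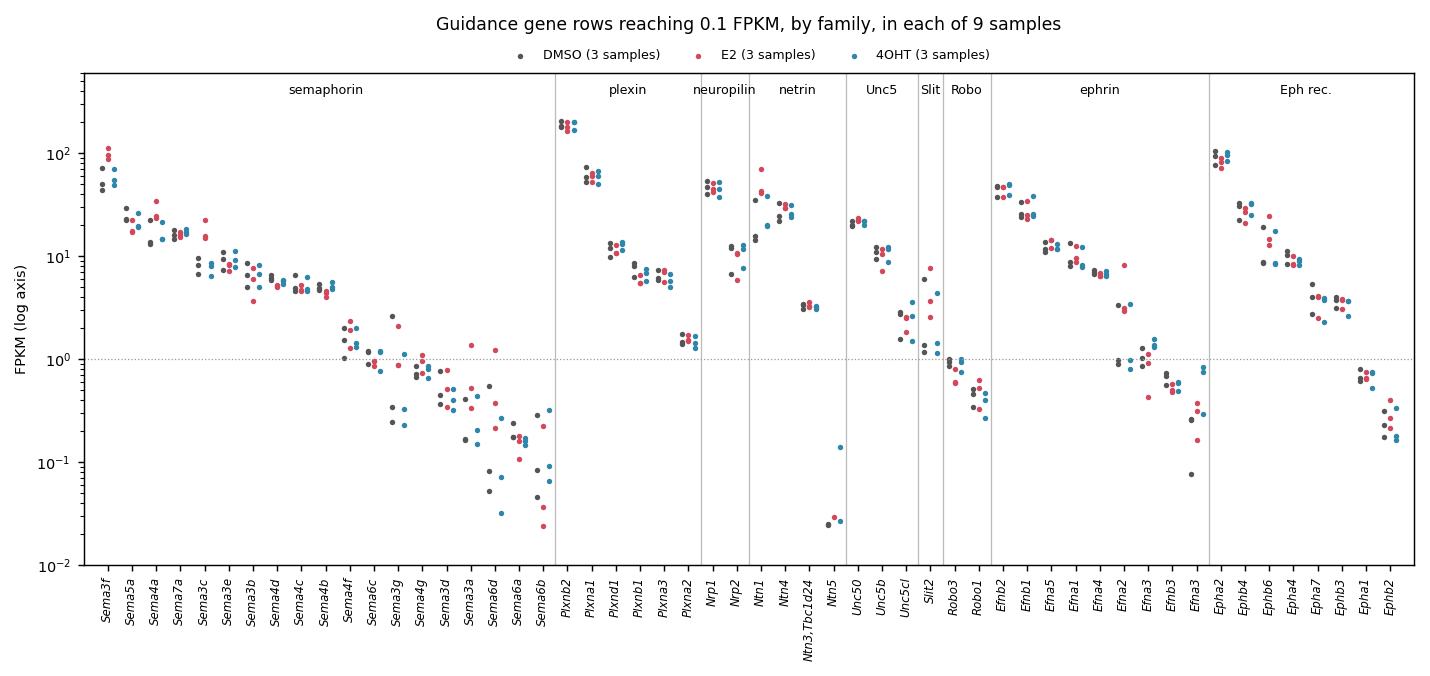
Levels of the 54 guidance gene rows that reached 0.1 FPKM in any sample, grouped by family and ordered by mean level, on a log axis of FPKM with 1 point per sample (grey DMSO, red E2, blue 4OHT, 3 samples each). The dotted line marks 1 FPKM, and 4 values of exactly 0 have no point on the log axis. *Plxnb2*, *Epha2*, *Sema3f* and *Plxna1* stand at the top, and both Robo rows shown lie at or under about 1 FPKM.

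The main question of the design was what E2 changes in hormone-starved cells. Several secreted and tethered ligands rose with E2, *Ntn1* by 2.36 times in mean FPKM, *Efna2* by 2.73 times, *Sema3c* by 2.17 times and *Sema3f* by 1.78 times, while a set of receptors and other semaphorins fell slightly. How many pass depends on whether the replicate numbers enter the fit. Without them, limma on log2(FPKM + 1) with Benjamini-Hochberg adjustment over 11097 rows called 68 rows at an adjusted p under 0.05, 64 higher (0.577%) and 4 lower (0.036%), and only *Sema3c* among the 41 members. At an unadjusted p under 0.05 there were 7 members, beside 1214 of the 11097 tested rows. The samples of 1 number deviated together from their condition means in every condition, with correlations across tested rows of 0.523 to 0.828, so a second fit took the replicate number as its block. It called 1378 rows higher (12.4%) and 784 lower (7.06%), and among the 41 members 8 higher and 8 lower. All 8 members that rose did so in each of the 3 replicate pairs, and all 8 that fell did so in each pair. The same held for 1377 of all 1378 rows called higher and 783 of all 784 called lower, so this agreement is not particular to the members. In the following, rose and fell refer to the fit with the block unless another is named.

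By role, 6 of the 24 tested ligand rows rose and 4 fell, while 1 of the 15 tested receptor rows rose and 4 fell. The remaining call was *Unc50*. No test was made of the difference between ligands and receptors. Sign left aside, the log2 fold changes had a median of 0.15 over the 41 members and 0.08 over all tested rows, and the signed medians were -0.02 and -0.003. In 5 members all E2 samples stood above all DMSO samples (9.17% of all tested rows did) and in 3 all stood below (6.13%).

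**Figure D2:**
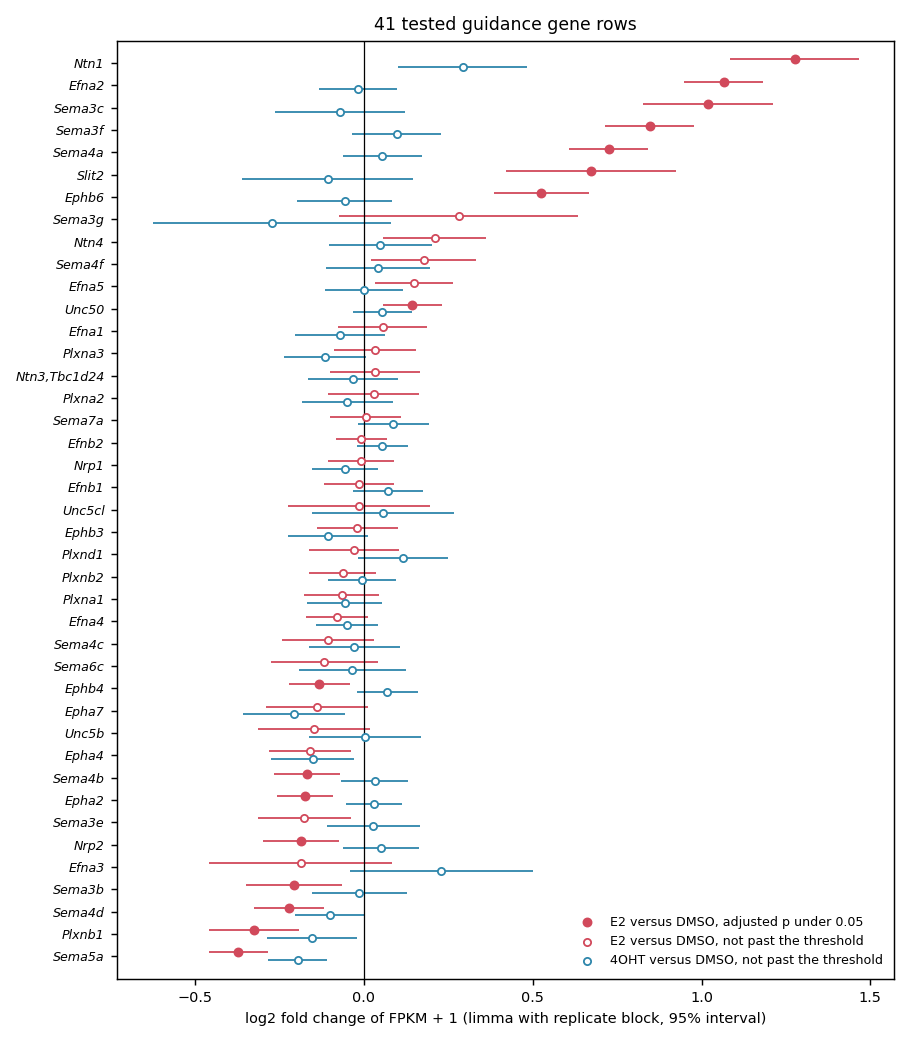
Log2 fold changes of FPKM + 1 for the 41 tested guidance gene rows, E2 versus DMSO in red and 4OHT versus DMSO in blue, from limma with the replicate block, with 95% intervals as bars, based on 3 samples per condition. Filled points have a Benjamini-Hochberg adjusted p under 0.05: there are 16 such points for E2, led by *Ntn1*, *Efna2* and *Sema3c*, and 0 for 4OHT. Both comparisons share the DMSO samples.

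*Sema3c* encodes a secreted semaphorin that binds neuropilins and guides vessels and neural crest cells, and lies at chr5:17574281-17730268 (GRCm38, plus strand). It stood at 9.58, 8.13 and 6.73 FPKM in DMSO replicates 1, 2 and 3, at 22.4, 15.8 and 14.9 with E2, and at 8.10, 8.55 and 6.40 with 4OHT. All E2 samples lay above all samples of the other conditions, and 4OHT and DMSO overlapped. The log2 fold change on the log2(FPKM + 1) scale was 1.02 with a standard error of 0.17 without the block (limma with Benjamini-Hochberg adjustment, adjusted p = 0.0446), and the adjusted p was 0.00012 with it. Without the block this call was lost with most other settings, for example to an adjusted p above 0.05 when any 1 sample other than DMSO replicate 1 was left out.

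*Sema3f*, a repellent class 3 semaphorin that acts through *Nrp2*, stood at 71.2, 43.7 and 50.5 FPKM with DMSO, at 112, 87.1 and 96.0 with E2 and at 70.2, 49.5 and 55.5 with 4OHT. Again every E2 sample lay above every other sample. The log2 fold change was 0.85 (standard error 0.06 with the block, limma with Benjamini-Hochberg adjustment, adjusted p = 4.56e-05; 0.127 without the block). *Sema4a*, a membrane-bound semaphorin with roles in immune cells and vessels whose exons overlap *Mir7011* on the same strand, stood at 22.5, 13.1 and 13.9 FPKM with DMSO, at 34.5, 24.7 and 23.4 with E2 and at 21.7, 14.6 and 14.6 with 4OHT. The E2 samples lay above those of the other conditions, the lowest of them by less than 1 FPKM above DMSO replicate 1. Its log2 fold change was 0.72 ± 0.05 (SE), with an adjusted p of 5.71e-05 with the block and 0.298 without it.

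*Ntn1* encodes the secreted netrin-1, which attracts or repels cells depending on the receptor and promotes survival through the dependence receptors Dcc and Unc5, and lies at chr11:68209364-68400823 (minus strand). It stood at 35.1, 14.4 and 15.8 FPKM with DMSO, at 70.1, 43.0 and 41.4 with E2 and at 38.4, 20.1 and 19.7 with 4OHT. The E2 samples lay above all others, and within each condition replicate 1 was the highest. Its log2 fold change of 1.28 (95% interval 1.08 to 1.47) was the largest among the members, with an adjusted p of 3.52e-05 with the block and 0.258 without it. *Ntn4*, a netrin of basement membranes, had a log2 fold change of 0.21 and an adjusted p of 0.0585 with the block.

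*Slit2*, the secreted Robo ligand at chr5:47983138-48307733 (plus strand), stood at 5.97, 1.36 and 1.16 FPKM with DMSO, at 7.59, 3.70 and 2.56 with E2 and at 4.38, 1.45 and 1.16 with 4OHT. Here the conditions overlapped, because replicate 1 was high in all of them, while E2 exceeded DMSO by 1.27, 2.72 and 2.20 times within the pairs. The log2 fold change was 0.67 ± 0.11 (SE), with an adjusted p of 0.00406 with the block and 0.678 without it.

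*Efna2*, a membrane-anchored ephrin at chr10:80179482-80190010 (plus strand), had the highest ratio of mean FPKM among the tested members. It stood at 3.39, 0.888 and 0.975 FPKM with DMSO, at 8.27, 2.92 and 3.13 with E2 and at 3.43, 0.804 and 0.975 with 4OHT. Replicates 2 and 3 with E2 lay under DMSO replicate 1, so the groups overlapped, although E2 was higher in each pair by 2.44, 3.28 and 3.21 times. Its log2 fold change of 1.07 (95% interval 0.95 to 1.18) had the smallest adjusted p of the members, 6.49e-06 with the block, against 0.466 without it. For such low levels the log2(FPKM + 1) scale understates the ratio.

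*Ephb6*, an Eph receptor that lacks kinase activity, was the only receptor row that rose. It stood at 19.1, 8.57 and 8.79 FPKM with DMSO, at 24.8, 14.6 and 13.0 with E2 and at 17.5, 8.34 and 8.65 with 4OHT, with overlapping groups and E2 higher in each pair. Its log2 fold change was 0.53 ± 0.06 (SE), with an adjusted p of 0.000741 with the block and 0.645 without it. *Unc50* completed the 8, with a mean of 20.5 ± 1.18 FPKM with DMSO, 22.7 ± 0.907 with E2 and 21.3 ± 1.25 with 4OHT (SD, n = 3). Its log2 fold change was 0.14 (adjusted p = 0.0319 with the block, 0.466 without), and it passed in 3 of the 9 block fits that each left out 1 sample.

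**Figure D3:**
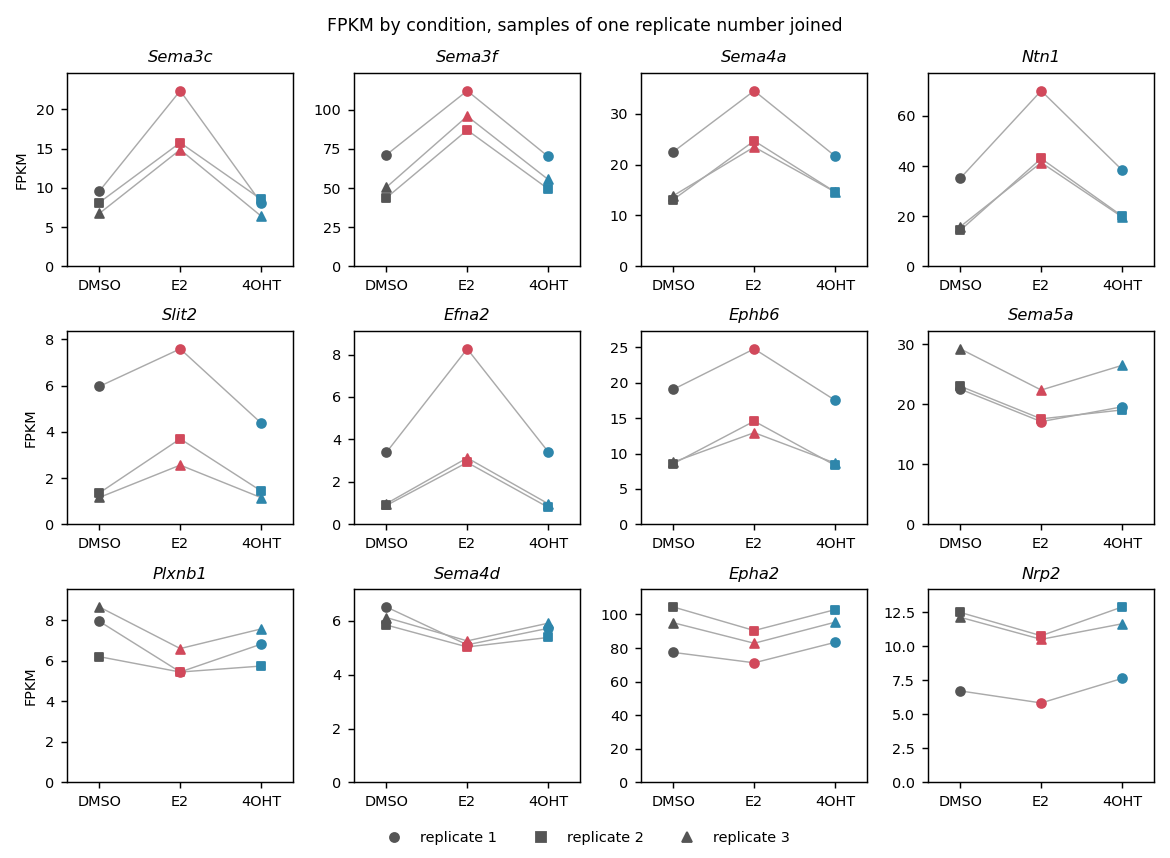
FPKM of 12 guidance genes in the 3 conditions, with 1 panel per gene, the vertical axis from 0 and grey lines joining samples of the same replicate number (circle 1, square 2, triangle 3). The 7 guidance genes that rose with E2 are highest with E2 in each replicate, and replicate 1 stands well above the others for *Ntn1*, *Slit2*, *Efna2* and *Ephb6*. *Sema5a*, *Plxnb1*, *Sema4d*, *Epha2* and *Nrp2* dip at E2 in each replicate.

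The promoter sequences of *Sema3c*, *Slit2* and *Ephb6*, a semaphorin, a Slit and an Eph receptor that rose, are printed with that of *Sema5a*, the member with the largest fall. They run from 250 bases before to 50 bases after the annotated start (RefSeq, GRCm38.p6), 5′ to 3′ on the gene's strand. For *Sema3c* this RefSeq start lies inside the gene span given above, which is from GENCODE. The whole *Sema3c* window therefore falls within that span. Capitals mark the GC box (GGGCGG or CCGCCC, bound by Sp factors, to which the estrogen receptor can be tethered) and a single arm of the estrogen response element (GGTCA or TGACC).

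Sema3c, chr5:17574566-17574865, plus strand: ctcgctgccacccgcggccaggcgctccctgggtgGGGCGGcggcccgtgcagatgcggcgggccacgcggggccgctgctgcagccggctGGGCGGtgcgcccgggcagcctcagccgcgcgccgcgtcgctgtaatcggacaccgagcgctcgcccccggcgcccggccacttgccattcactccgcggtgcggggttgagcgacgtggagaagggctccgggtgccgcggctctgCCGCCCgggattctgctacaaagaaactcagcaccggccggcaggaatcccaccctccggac

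Slit2, chr5:47982905-47983204, plus strand: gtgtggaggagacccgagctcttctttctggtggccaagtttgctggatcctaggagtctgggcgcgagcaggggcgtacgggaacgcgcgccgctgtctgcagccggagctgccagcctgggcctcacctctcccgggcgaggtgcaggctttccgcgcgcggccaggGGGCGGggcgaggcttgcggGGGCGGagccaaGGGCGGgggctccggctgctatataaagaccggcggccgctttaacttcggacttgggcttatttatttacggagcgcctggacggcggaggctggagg

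Ephb6, chr6:41605261-41605560, plus strand: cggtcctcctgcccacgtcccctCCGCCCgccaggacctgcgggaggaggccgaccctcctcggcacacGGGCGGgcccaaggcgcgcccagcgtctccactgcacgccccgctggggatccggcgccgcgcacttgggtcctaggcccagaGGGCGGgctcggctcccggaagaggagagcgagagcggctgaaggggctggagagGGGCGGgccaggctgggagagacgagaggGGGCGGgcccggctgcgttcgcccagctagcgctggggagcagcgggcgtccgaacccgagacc

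Sema5a, chr15:32244563-32244862, plus strand: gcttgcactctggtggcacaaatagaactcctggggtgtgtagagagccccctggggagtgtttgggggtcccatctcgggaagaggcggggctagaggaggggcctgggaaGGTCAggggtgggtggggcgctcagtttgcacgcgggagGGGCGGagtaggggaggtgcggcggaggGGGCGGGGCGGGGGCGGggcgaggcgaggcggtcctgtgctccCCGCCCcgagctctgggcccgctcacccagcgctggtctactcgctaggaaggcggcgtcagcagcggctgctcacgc

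The windows of *Sema3c*, *Slit2* and *Ephb6* hold GC boxes and no arm of the response element, while that of *Sema5a* holds both. Of the 70 symbols, 61 had an entry, and *Ntn1*, *Sema3f* and *Sema3b* were among those without. Searched on both strands, the palindromic element (GGTCA and TGACC with any NNN between them) was in none of the 9 windows of the 6 risers with an entry and none of the 10 windows of the 7 fallers with an entry, against 0.0700% of all 32851 mouse promoter windows. A single arm was in 1 of the 9 and 7 of the 10, against 40.5% of all windows, and a GC box in 8 of the 9 and 8 of the 10, against 35.7%. A gene can have several windows, some of them overlapping. Counted by gene, a single arm was in 1 of the 6 risers, *Unc50*, and in 4 of the 7 fallers, against 11784 of all 27025 genes. A GC box was in 6 of the 6 and 7 of the 7, against 10324 of the 27025. The windows of risers and fallers held 51.0% (*Sema4d*) to 76.3% (*Ephb6*) G or C, beside a median of 52.7% over all windows. The part of this content in the GC box matches was not tested. These matches describe the letters of the windows only, and whether a factor binds there was not tested.

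The falls with E2 ranged from -0.13 to -0.37 on the log2 scale, and the 7 guidance genes that rose ranged from 0.53 to 1.28. *Sema5a*, a transmembrane semaphorin with thrombospondin repeats, stood at 22.5, 23.0 and 29.3 FPKM with DMSO, at 17.1, 17.6 and 22.4 with E2 and at 19.6, 19.1 and 26.5 with 4OHT. All E2 samples lay below all DMSO samples, by a narrow margin, and E2 was at 0.760, 0.764 and 0.765 times DMSO in the 3 pairs. The log2 fold change was -0.37 ± 0.04 (SE), with an adjusted p of 0.000368 with the block and 0.428 without it.

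*Plxnb1*, a receptor for *Sema4d*, stood at 7.96, 6.21 and 8.67 FPKM with DMSO, at 5.45, 5.45 and 6.61 with E2 and at 6.83, 5.75 and 7.58 with 4OHT. The groups overlapped, and the log2 fold change was -0.33 ± 0.06 (SE; adjusted p = 0.00629 with the block, 0.412 without). Its exons overlap the antisense gene *Gm7628*, which a directional library can keep apart only if the counting used strand. Its ligand *Sema4d* fell too. It stood at 6.51, 5.84 and 6.12 FPKM with DMSO, at 5.11, 5.03 and 5.25 with E2 and at 5.72, 5.38 and 5.91 with 4OHT, so that E2 lay below both other conditions. E2 versus DMSO gave a log2 fold change of -0.22 ± 0.05 (SE; adjusted p = 0.0107 with the block, 0.213 without).

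*Epha2* stood at 77.4, 104 and 95.0 FPKM with DMSO, at 71.2, 90.4 and 82.8 with E2 and at 83.4, 103 and 95.4 with 4OHT. The groups overlapped while each pair was lower with E2, and the log2 fold change was -0.17 ± 0.04 (SE; adjusted p = 0.0123 with the block, 0.665 without). *Nrp2*, the neuropilin that *Sema3f* uses, stood at 6.72, 12.5 and 12.1 FPKM with DMSO, at 5.84, 10.8 and 10.5 with E2 and at 7.63, 12.9 and 11.6 with 4OHT. Replicate 1 was the lowest in each condition, and the log2 fold change was -0.19 ± 0.05 (SE; adjusted p = 0.0302 with the block, 0.836 without).

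*Ephb4*, the receptor of *Efnb2* in vessels, stood at 22.5, 30.5 and 32.9 FPKM with DMSO, at 21.2, 27.0 and 29.7 with E2 and at 25.0, 31.8 and 32.8 with 4OHT. Its log2 fold change was -0.13 ± 0.04 (SE; adjusted p = 0.0472 with the block, 0.801 without), with overlapping groups, and its exons overlap *Zan* on the other strand. *Sema4b*, a membrane-bound semaphorin, stood at 5.36, 4.89 and 4.71 FPKM with DMSO, at 4.55, 4.38 and 4.05 with E2 and at 5.58, 5.02 and 4.77 with 4OHT. E2 lay below both other conditions, with a log2 fold change of -0.17 ± 0.04 (SE; adjusted p = 0.0279 with the block, 0.459 without).

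*Sema3b*, a secreted semaphorin known as a tumour suppressor, stood at 5.06, 6.55 and 8.62 FPKM with DMSO, at 3.69, 5.99 and 7.72 with E2 and at 5.05, 6.69 and 8.20 with 4OHT. The groups overlapped, and the log2 fold change was -0.21 ± 0.06 (SE; adjusted p = 0.0484 with the block, 0.791 without). The gene lies 72.3 kb from *Sema3f* on the minus strand of chromosome 9 (*Sema3b* at chr9:107597674-107609229 and *Sema3f* at chr9:107681500-107710475, GRCm38). These neighbours of the same class moved in opposite directions with E2, although the fall of *Sema3b* passed in 0 of the 9 block fits that left out 1 sample.

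Leaving out each of the 9 samples in turn from the fit with the block sorted the calls. *Efna2*, *Ntn1*, *Sema3c*, *Sema3f*, *Sema4a*, *Slit2*, *Ephb6*, *Sema5a*, *Plxnb1* and *Sema4d* passed in 9 of 9 fits. *Epha2* passed in 6, and *Nrp2* and *Sema4b* in 4 each, *Unc50* in 3 and *Ephb4* in 2. Leaving out a whole replicate number, which removes 3 samples, *Slit2* and *Plxnb1* passed in 2 of 3 fits, *Sema4d* and *Epha2* in 1, and *Nrp2*, *Sema4b*, *Unc50*, *Ephb4* and *Sema3b* in 0. The other 7 passed in 3 of 3. With 1 sample left out, the number of members called ranged from 10, without DMSO replicate 3 or without E2 replicate 3, to 16.

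The other question was whether 4OHT acts on these genes as E2 does. With 4OHT, 0 of the 41 members passed in either fit (limma with Benjamini-Hochberg adjustment), and over all rows 0 passed without the block (0%) and 8 with it, 7 higher (0.0631%) and 1 lower (0.00901%). At an unadjusted p under 0.05, 279 rows and 0 members stood without the block, and 1541 rows and 5 members with it. The smallest adjusted p of a member was 0.161, for *Sema5a*, with a log2 fold change of -0.20 (95% interval -0.28 to -0.11) and lower values in all 3 pairs. *Ntn1* came next with 0.29 (0.10 to 0.48, adjusted p = 0.28) and higher values in all 3 pairs, at 1.09, 1.40 and 1.24 times DMSO.

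For the other guidance genes that rose with E2, the 95% interval of the 4OHT effect included 0. It ran from -0.13 to 0.10 for *Efna2*, from -0.26 to 0.12 for *Sema3c*, from -0.03 to 0.23 for *Sema3f*, from -0.06 to 0.17 for *Sema4a*, from -0.36 to 0.14 for *Slit2* and from -0.20 to 0.08 for *Ephb6*. These upper bounds lie under the lower bounds of the E2 effect on the same genes. For *Unc50* the intervals overlapped, at -0.03 to 0.14 with 4OHT and 0.06 to 0.23 with E2. The doses differ, 1 nM E2 against 100 nM 4OHT, and both comparisons share the DMSO samples. All 4OHT samples stood above all DMSO samples in 1 tested member (4.36% of all tested rows) and below them in 0 (3.53%).

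That member was the tested row of *Efna3*, an A-type ephrin, at 1.02, 0.859 and 1.29 FPKM with DMSO, at 0.425, 1.13 and 0.915 with E2 and at 1.30, 1.36 and 1.56 with 4OHT. The margin between 4OHT and DMSO was under 0.02 FPKM, and the gene overlaps *Gm15998* on the other strand and is split over 2 rows, so its level is uncertain. Its other row was lower, at 0.0755 to 0.263 FPKM with DMSO and 0.293 to 0.840 with 4OHT, and was not tested.

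Set directly against 4OHT at 24 h, E2 had *Sema3c*, *Efna2* and *Ntn1* as its largest differences. Without the block, 40 rows passed, 38 higher with E2 (0.342%) and 2 lower (0.018%), among them *Sema3c* with a log2 fold change of 1.09 (adjusted p = 0.0482). With the block, 1241 rows were higher (11.2%) and 1303 lower (11.7%), and of the 41 members 8 were higher and 7 lower. All E2 samples stood above all 4OHT samples in 4 members (8.41% of all tested rows) and below them in 3 (10.1%).

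The higher members were *Sema3c* (log2 fold change 1.09), *Efna2* (1.08), *Ntn1* (0.98), *Slit2* (0.78), *Sema3f* (0.75), *Sema4a* (0.67), *Ephb6* (0.58) and *Sema3g* (0.55). The lower members were *Efna3* (-0.42), *Nrp2* (-0.24), *Sema3e* (-0.20), *Epha2* (-0.20), *Ephb4* (-0.20), *Sema4b* (-0.20) and *Sema5a* (-0.18). Adjusted p-values of these 15 lay between 1.99e-05 and 0.042. The fall of *Plxnb1*, *Sema4d* and *Sema3b* against DMSO had no counterpart past the threshold here, a difference between comparisons that was not tested.

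*Sema3g*, a class 3 semaphorin of endothelium, passed in this comparison alone among the fits made here. The study's own cuffdiff analysis, however, lists it among the genes significantly lower with 4OHT than with DMSO. *Sema3g* stood at 2.63, 0.339 and 0.242 FPKM with DMSO, at 2.10, 0.869 and 0.869 with E2 and at 1.11, 0.324 and 0.227 with 4OHT. In the pairs 4OHT was at 0.422, 0.958 and 0.936 times DMSO (limma with the block, adjusted p = 0.431). Replicate 1 was far above the others in each condition, E2 exceeded 4OHT by 1.89, 2.68 and 3.83 times in the pairs, and the adjusted p was 0.0358 with the block. E2 was under DMSO in replicate 1 and above it in replicates 2 and 3, and the call passed in 4 of 9 block fits with 1 sample left out. *Sema3e*, the ligand of *Plxnd1* in vessels, stood at 7.35, 10.9 and 9.35 FPKM with DMSO, at 7.19, 8.45 and 8.19 with E2 and at 7.79, 11.1 and 9.20 with 4OHT, with an adjusted p of 0.042 against 4OHT and 0.0732 against DMSO. It passed in 3 of the 9 fits against 4OHT, as did *Efna3*.

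Replicate 1 stood above the others in several members. The 4OHT samples are outside the contrast of E2 with DMSO but entered the same fit, so the calls are not independent of them. Among these samples, replicate 1 stood at 3.85 times the mean of replicates 2 and 3 for *Efna2*, 3.37 times for *Slit2*, 2.06 times for *Ephb6* and 1.93 times for *Ntn1*. A ratio of at least 1.5 was found in these 4 of the 8 members that rose, against 12.7% of all 1378 rows that rose. It was found in 0 of the 8 members that fell, against 1.91% of all 784 rows that fell. It was also found in 4 of the 25 members that did not pass, *Sema3g* at 4.04 times, *Unc5cl* at 1.73, *Efnb1* at 1.55 and *Efna1* at 1.51, against 2.08% of all rows that did not pass.  The E2 change was smallest in replicate 1 in 7 of the 8 risers, against 45.0% of all rows that rose, and *Sema3c* was not among the 4 with a raised replicate 1.

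Known E2 targets were also highest in replicate 1. *Pgr*, the progesterone receptor, stood at 9.58, 1.36 and 1.16 FPKM with DMSO, at 38.1, 21.1 and 15.9 with E2 and at 9.67, 3.67 and 2.39 with 4OHT. *Greb1*, a co-activator of the estrogen receptor, stood at 14.3, 2.58 and 2.30 FPKM with DMSO, at 34.3, 20.4 and 14.3 with E2 and at 13.2, 3.76 and 3.23 with 4OHT. Their log2 fold changes with E2 were 2.70 and 2.00, with adjusted p-values of 8.01e-05 and 0.000342 with the block and 0.167 and 0.309 without it. *Dcn*, a stromal marker that the paper lists among the genes raised by E2, was highest in replicate 1 too. It stood at 5.87, 0.652 and 0.416 FPKM with DMSO and at 21.0, 11.9 and 6.05 with E2. What sets replicate 1 apart was not tested.

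**Figure D4:**
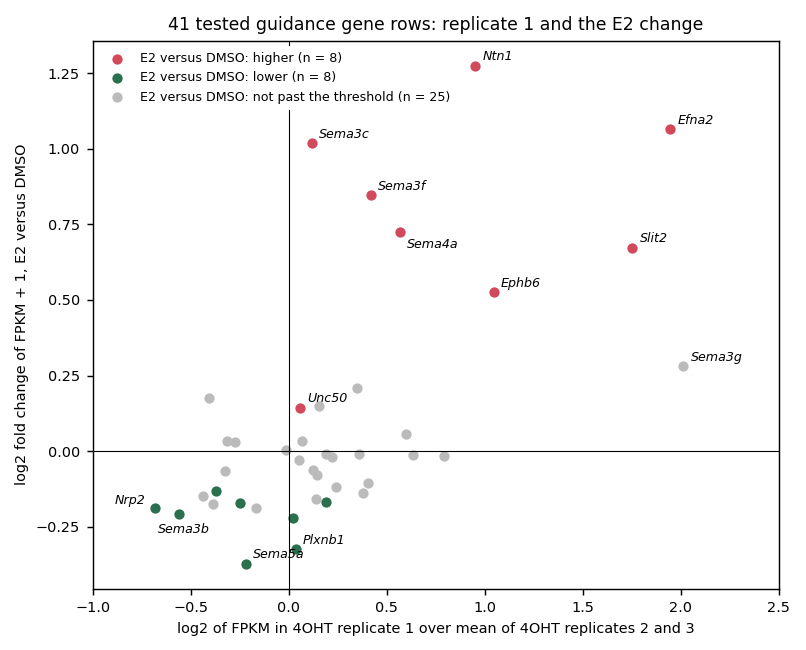
For the 41 tested guidance gene rows, the horizontal axis gives the log2 ratio of FPKM in 4OHT replicate 1 to the mean of 4OHT replicates 2 and 3, and the vertical axis the log2 fold change of FPKM + 1 for E2 versus DMSO with the replicate block. Red points rose (n = 8), green points fell (n = 8) and grey points did not pass (n = 25). *Efna2*, *Slit2*, *Ephb6* and *Ntn1* lie at the upper right, and *Sema3c* rose with a replicate 1 close to the others.

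Below the minimum for testing, *Sema3a*, *Sema6d* and *Sema4g* were semaphorins with higher values with E2 in each of the 3 pairs. *Sema3a*, a repellent class 3 semaphorin, stood at 0.408, 0.164 and 0.168 FPKM with DMSO, at 1.38, 0.524 and 0.337 with E2 and at 0.441, 0.203 and 0.151 with 4OHT. *Sema6d*, a transmembrane semaphorin, stood at 0.544, 0.0821 and 0.0516 FPKM with DMSO, at 1.22, 0.371 and 0.212 with E2 and at 0.269, 0.0713 and 0.0315 with 4OHT. In a fit without the minimum, over 18135 rows and with the block, the adjusted p-values of *Sema3a* and *Sema6d* were 0.0562 and 0.0901 against DMSO. For *Sema4g*, at 1.01, 1.41 and 1.29 times DMSO in the pairs, the adjusted p in the same fit was 0.228. Against 4OHT in that fit, *Sema6d* passed at 0.47 on the log2 scale (limma, adjusted p = 0.0456 with the block, 0.569 without). *Sema3a* had 0.43 (adjusted p = 0.063 with the block).

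*Robo3* went the other way. It stood at 0.941, 1.01 and 0.848 FPKM with DMSO, at 0.597, 0.803 and 0.578 with E2 and at 0.933, 0.997 and 0.753 with 4OHT. All E2 samples lay below all DMSO samples. The limma fit without the minimum gave a log2 fold change of -0.22 (adjusted p = 0.0212 with the block, 0.375 without). Against 4OHT it gave -0.19 (adjusted p = 0.0358 with the block, 0.457 without). *Sema6b*, at no more than 0.319 FPKM in any sample, was also lower with E2 than with 4OHT in that fit. It had -0.08 on the log2 scale (limma, adjusted p = 0.0458 with the block, 0.836 without). *Robo1* stood between 0.266 and 0.625 FPKM over all samples, and in that fit its log2 fold change was 0.05 (adjusted p = 0.508). *Robo2* and *Robo4* stayed under 0.1 FPKM.

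Many members did not pass with E2 although they were well expressed. *Plxnb2* was between 163 and 206 FPKM in all samples, with a log2 fold change of -0.06 (95% interval -0.16 to 0.04 with the block). *Nrp1* had -0.01 (-0.11 to 0.09) and *Efnb2* -0.01 (-0.08 to 0.07). Of the 6 tested plexins only *Plxnb1* was called, and of the 7 tested ephrin rows only *Efna2*, while *Unc5b*, the netrin receptor, had a log2 fold change of -0.15 (adjusted p = 0.187 with the block).

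Guidance receptors act through co-receptors, collapsin response mediators, exchange factors and actin-binding proteins. Of a list of 76 such partners 73 were found and 55 tested. Without the block 0 passed with E2 (limma with Benjamini-Hochberg adjustment). At an unadjusted p under 0.05 there were 12, beside 1214 of the 11097 tested rows. With the block 15 rose and 6 fell, against the 12.4% and 7.06% of all rows. The median log2 fold change of the 55 was 0.02, beside -0.003 over all rows. With 4OHT 0 passed in either direction and either fit. At an unadjusted p under 0.05 there were 2 without the block and 9 with it, beside 279 and 1541 of all tested rows. Against 4OHT, E2 was higher for 11 and lower for 9 with the block, against 11.2% and 11.7% of all rows. Without the block 0 passed, and 6 stood at an unadjusted p under 0.05, beside 1313 of all tested rows.

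The largest changes with E2 were in *Ablim1*, an actin-binding protein downstream of netrin signalling, with a log2 fold change of -0.49 (adjusted p = 0.000226 with the block, 0.43 without). *Kdr*, the VEGF receptor that can pair with neuropilins, had 0.44 (0.00237 and 0.114), and *Dpysl3*, a collapsin response mediator, had 0.39 (0.000167 and 0.531). *Vav2*, an exchange factor used by Eph receptors, had 0.33 (0.00115 and 0.212), and *Vegfa*, which shares neuropilins with class 3 semaphorins, had -0.32 (0.00295 and 0.725). Against 4OHT these genes had -0.42 for *Ablim1*, 0.35 for *Kdr*, 0.32 for *Dpysl3*, 0.29 for *Vav2* and -0.42 for *Vegfa*, all past the threshold with the block. *Farp1*, an exchange factor that binds class A plexins, had 0.31 against 4OHT.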

How the data were processed

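RNA of FVB MOE cells was measured in 3 samples per condition, grouped and numbered as in the labels. The authors trimmed 50-base directional single-end reads from oligo-dT selected RNA, aligned them to mm10 with TopHat 2.0.8b and deposited FPKM per gene row from Cufflinks and a UCSC annotation (Cuffdiff 2.1.1 is named in the submitters' notes). Counts were not used here, so depth was read from the smallest FPKM steps and no counting interval is given. FPKM as deposited were log2-transformed after adding 1. Rows with at least 1 FPKM in at least 3 samples, without an exact 0 in an otherwise expressed row (median of the nonzero values at least 1), were tested: 11097 rows. All 9 samples entered a single fit in limma 3.58.1 (R 4.3.3) with a variance trend, 3 contrasts and Benjamini-Hochberg adjustment within each, threshold 0.05. The main alternative added the replicate number to this fit as a block. The numbers pair the samples because every correlation of same-numbered samples' deviations from their condition means exceeded 0.1 (0.523 to 0.828 over all tested rows, 0.823 to 0.952 over the members). Values are given for each member past the threshold in either fit in any contrast and for the highest member of each family. For most of these they are given sample by sample, and for the others as means or ranges. Up to 5 signalling partners per contrast with the largest change are given by log2 fold change only. The cell markers are given mostly as ranges or sums, and *Pgr* and *Greb1* sample by sample. Members and lists were chosen with earlier results of these data known. The fit was tested on simulated data. Promoters came from RefSeq (GRCm38.p6) and gene positions from GENCODE for GRCm38. Other alternatives were another pseudocount, no minimum, exact zeros kept or taken as missing, median-ratio and upper-quartile scaling, the 6 samples of a contrast alone, and samples left out.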

Additional observations from a re-analysis of the deposited data

How the results depend on the processing

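The replicate block decided most calls. With the block instead of no replicate term, E2 versus DMSO called 16 members, 21 partners and 2162 rows (main 1, 0 and 68), E2 versus 4OHT 15, 20 and 2544 (main 1, 0 and 40), and 4OHT versus DMSO 0 members, 0 partners and 8 rows (main 0 in each). Exact zeros as missing with the block gave 15, 20 and 2128 for E2 versus DMSO, 15, 21 and 2476 for E2 versus 4OHT and 22 rows for 4OHT versus DMSO.

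Without the block, E2 versus DMSO called 0 members and 45 rows with no minimum, 0 members with exact zeros kept or with upper-quartile scaling, and 0 members and 20 rows with only its 6 samples. E2 versus 4OHT called 0 members with a pseudocount of 0.1 or exact zeros as missing, and 0 members with 11, 18 and 22 rows with no minimum, exact zeros kept and only its 6 samples. Leaving out 1 sample gave 0 to 2 members and 16 to 92 rows for E2 versus DMSO, and 0 to 1 members and 0 to 59 rows for E2 versus 4OHT. Without E2 replicate 1, the sign of fold changes that did not pass turned: leaving out each sample in turn gave *Nrp2* -0.449 to 0.069 against DMSO and -0.443 to 0.0187 against 4OHT, and against DMSO *Sema3b* -0.409 to 0.0378 and *Ephb4* -0.289 to 0.0022, the highest value of each coming without that sample.

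Settings added after seeing the data joined the block to another choice. For E2 versus DMSO, members, partners and rows were 15, 21 and 2159 with a pseudocount of 0.1, 13, 14 and 1618 with no minimum, 16, 22 and 2355 with median-ratio scaling and 17, 20 and 2542 with upper-quartile scaling. For E2 versus 4OHT they were 15, 20 and 2551, then 15, 10 and 1614, then 15, 20 and 2621, then 15, 18 and 2743. For 4OHT versus DMSO rows were 8, 0, 2 and 2. With the block and 1 sample left out, E2 versus DMSO called 10 to 16 members, 12 to 19 partners and 995 to 1977 rows, E2 versus 4OHT 7 to 15, 8 to 19 and 757 to 2505, and 4OHT versus DMSO 0 to 19 rows. With the block and a whole replicate number left out, a planned setting, the ranges were 7 to 13, 6 to 17 and 736 to 1567, then 9 to 11, 7 to 8 and 1017 to 1235, then 0 to 3 rows. The fewest members for E2 versus DMSO, 7, came without replicate 3. No member passed with 4OHT versus DMSO under any of these settings. The causes of these shifts were not tested, apart from fewer samples in the settings that leave samples out.

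Precision is limited by 3 samples per condition, by an unknown number of reads behind each FPKM and by the added 1, which shrinks fold changes of members near 1 FPKM such as *Efna2*, *Slit2*, *Sema3g* and *Efna3*.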
